A study of Mus musculus with 19 samples.

Results

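Oxidative phosphorylation and tricarboxylic acid (TCA) cycle genes were followed in mouse CD4+ T cells sorted around the follicular helper T (Tfh) cell fate. The 43 genes, taken from a list of symbols, encode subunits of respiratory chain complexes I to IV, cytochrome c, ATP synthase subunits and TCA cycle enzymes, together with Ppargc1b and Tfam, regulators of mitochondrial gene expression. Complex I is represented by Ndufa1, Ndufa4, Ndufa8, Ndufa9, Ndufa10, Ndufb3, Ndufb5, Ndufb8, Ndufs1, Ndufs3, Ndufs7, Ndufs8, Ndufv1 and Ndufv2, complex II by Sdha, Sdhb, Sdhc and Sdhd, complex III by Uqcrc1, Uqcrc2, Uqcrfs1 and Cyc1 and complex IV by Cox4i1, Cox5a, Cox5b, Cox6c and Cox7b. ATP synthase is represented by Atp5b, Atp5o and Atp5g1, the TCA cycle by Cs, Idh2, Idh3a, Idh3g, Ogdh, Dlst, Suclg1, Fh1, Mdh1 and Mdh2, and cytochrome c by Cycs. Each gene was read from 1 probe set, chosen as the brightest on average among those annotated with its symbol alone, and was kept if that probe set came to log2 4 or more on 2 or more of the 19 arrays. Of the 43 genes 42 were kept, all of them at log2 4 or more on all 19 arrays, and Cox7b was not analysed here. They stand among 9930 genes tested. Means over the arrays ran from 7.58 for Ppargc1b and 9.99 for Idh2 up to 14.34 for Mdh1, on a log2 intensity scale that does not compare one gene's level with another's.

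All mice were C57BL/6J, and there was 1 array per sorted sample. Of the 6 groups, 4 were CXCR5hi PD-1hi cells, the surface phenotype of Tfh cells, from lymph nodes of immunized mice. They were cells positive for a BCL6-YFP reporter (YFP-positive, n = 4, replicate 4 from day 10 after immunization and the others from day 7), cells negative for it (YFP-negative, n = 4, replicates 1 and 4 from day 10), cells of Bcl6yfp/+ genotype (n = 3, day 7) and cells of Bcl6+/+ genotype (n = 3, replicates 1 and 2 from day 10). CXCR5lo PD-1lo cells (n = 3, day 7) are the non-Tfh cells of the response. Naive CD4+ cells (n = 2), sorted as CD44lo CD62Lhi, came from the spleen of unimmunized mice. Per a protocol repeated for all samples, OT-II Bcl6yfp/+ cells, which carry a transgenic receptor for ovalbumin, were transferred to mice that then received NP-OVA in CFA under the skin. Cells described so have 1 reporter allele and 1 intact Bcl6 allele, but that text may not describe the naive and the Bcl6+/+ samples. RNA was extracted with TRIzol for the reporter fractions, the CXCR5lo PD-1lo cells and naive replicate 1, and with TRIzol or RNeasy for the other 7 samples. The labels do not say whether a sample was 1 mouse or a pool. The p-values therefore reflect only how far samples spread within groups, estimated over all 6 groups together, and that spread may be technical. Naive cells differ from all other groups in tissue as well as in activation, which cannot be told apart.

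The TCA cycle oxidises acetyl groups in the mitochondrial matrix and hands the electrons to the respiratory chain. Complexes I, III and IV pump protons as electrons pass to oxygen, complex II feeds in electrons from succinate, and ATP synthase uses the proton gradient to make ATP. Naive T cells are small and rely mainly on this route, while activated T cells grow, divide and build up both glycolysis and mitochondria. BCL6, the transcriptional repressor that Tfh cells need, is known for holding down glycolysis genes in T cells.

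NRF1, ETS factors, ERR and YY1 are textbook regulators of nuclear respiratory chain genes. The stretches below are shown for 3 complex I genes that were higher in CXCR5hi PD-1hi than in naive cells and for Idh2, which was lower in YFP-negative than in CXCR5lo PD-1lo cells. Each is the 250 bases before the annotated start in RefSeq's GRCm38.p6 annotation, read in the direction of the gene. They lie at chrX:37191239-37191488, minus strand (Ndufa1), chr2:36049339-36049588, minus strand (Ndufa8), chr19:3912775-3913024, minus strand (Ndufs8) and chr7:80115351-80115600, minus strand (Idh2). Capitals mark a match to a motif searched.
Ndufa1: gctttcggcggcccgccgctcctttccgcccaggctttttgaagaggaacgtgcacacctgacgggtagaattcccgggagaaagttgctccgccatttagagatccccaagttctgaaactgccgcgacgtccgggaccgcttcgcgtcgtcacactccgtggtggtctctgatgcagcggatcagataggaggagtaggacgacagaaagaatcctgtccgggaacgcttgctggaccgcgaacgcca
Ndufa8: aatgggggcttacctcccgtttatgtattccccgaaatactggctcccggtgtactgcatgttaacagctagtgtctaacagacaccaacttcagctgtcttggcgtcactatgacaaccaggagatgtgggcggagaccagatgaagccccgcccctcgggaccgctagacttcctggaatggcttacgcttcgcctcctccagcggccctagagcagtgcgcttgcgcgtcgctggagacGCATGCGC
Ndufs8: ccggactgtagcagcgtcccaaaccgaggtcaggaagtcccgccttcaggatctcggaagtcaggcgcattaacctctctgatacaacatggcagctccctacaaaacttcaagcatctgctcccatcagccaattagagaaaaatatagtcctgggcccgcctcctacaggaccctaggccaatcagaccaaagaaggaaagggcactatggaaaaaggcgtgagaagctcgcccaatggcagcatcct
Idh2: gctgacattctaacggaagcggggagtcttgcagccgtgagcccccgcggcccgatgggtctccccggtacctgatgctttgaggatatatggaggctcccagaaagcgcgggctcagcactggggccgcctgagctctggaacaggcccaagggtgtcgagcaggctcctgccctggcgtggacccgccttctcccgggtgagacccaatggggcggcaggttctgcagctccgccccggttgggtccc

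Motifs were searched on both strands of a window of 300 bases, 250 before and 50 after each start, in the 34 of 42 genes with a promoter entry. The NRF1 motif GCATGCGC was present in 5 genes, Cycs, Ndufa8, Ogdh, Sdhb and Uqcrc1 (14.7%, against 3.05% of 27025 genes). In Ndufa8 it ends at the last base before the start, and in Uqcrc1 its matches on the 2 strands overlap. The ETS motif CCGGAAG was present in 7 genes (20.6%, against 9.93%), among them Tfam and Ndufs8, where it lies after the start and outside the stretch shown. YY1's AAGATGGC was present in 4 genes (11.8%, against 3.19%), the ERR motif AAGGTCA in 2 (5.88%, against 5.38%) and the E-box CACGTG in 3 (8.82%, against 8.09%). None of these motifs was found in the windows of Ndufa1 and Idh2. The 27025 genes are all those with a promoter entry, not only the 9930 genes tested on these arrays. Every gene, whether among the 42 or not, was searched at each of its annotated starts, and a match describes letters only.

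The deposited arrays did not share 1 distribution. A chosen cut of 0.06 log2 on the difference between 2 arrays, each sorted by value, gave 7 normalization sets. The differences were at most 0.0482 log2 within a set and at least 0.0666 between sets. Those between sets exceed the cut by construction, and the gap around it is narrow. Sets 1 to 3 each hold the arrays of 1 replicate number from both reporter fractions and the CXCR5lo PD-1lo cells. Set 4 holds replicate 4 of both reporter fractions and naive replicate 1, set 5 holds Bcl6yfp/+ replicate 1 and naive replicate 2, set 6 holds replicates 2 and 3 of both genotypes, and set 7 is Bcl6+/+ replicate 1. The 4 arrays of set 6 lay closer to each other (SD over genes of the difference between 2 arrays 0.271 to 0.361) than any other pair (0.523 to 1.95). All 9 T cell identity genes tested reached log2 8 in every group. The mean of 6 Tfh genes was 13.38 to 14.24 on CXCR5hi PD-1hi arrays, 11.29 to 12.53 on CXCR5lo PD-1lo arrays and 7.67 to 7.69 on naive arrays. That of 5 naive T cell genes was 6.24 to 10.38 on CXCR5hi PD-1hi arrays. It was 12.28 to 12.61 on CXCR5lo PD-1lo arrays, near the 12.52 to 13.12 of the naive arrays. Of 9 B cell markers 2 were tested, with means of 7.06 to 7.89 in CXCR5lo PD-1lo cells and at most 6.36 elsewhere. Of 5 CD8 T and NK cell markers 2 were tested, with means of 3.85 to 5.51 in CXCR5hi PD-1hi cells, 8.55 to 9.00 in CXCR5lo PD-1lo cells and 7.94 to 9.52 in naive cells. Of these 2 only Klrd1 was called in any comparison. It averaged 10.72 in CXCR5lo PD-1lo cells, 10.63 in naive cells and 2.57 over the CXCR5hi PD-1hi groups. Of 5 germinal centre B and plasma cell markers 2 were tested, with means of 2.38 to 9.48 on YFP-negative arrays and at most 6.37 elsewhere, and of 9 myeloid and dendritic cell markers 3, with means of 3.12 to 6.84 on YFP-negative arrays and at most 4.97 elsewhere. None of 5 erythroid markers passed the filter. Whether such other cells were present, and their part in the results, was not tested. The Y-linked gene Eif2s3y was at 12.89 to 13.84 on YFP-positive replicate 4, YFP-negative replicates 1 and 4, naive replicate 2 and all Bcl6yfp/+ and Bcl6+/+ arrays, and at most 2.40 on the others, so the samples were of both sexes.

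**Figure D1:**
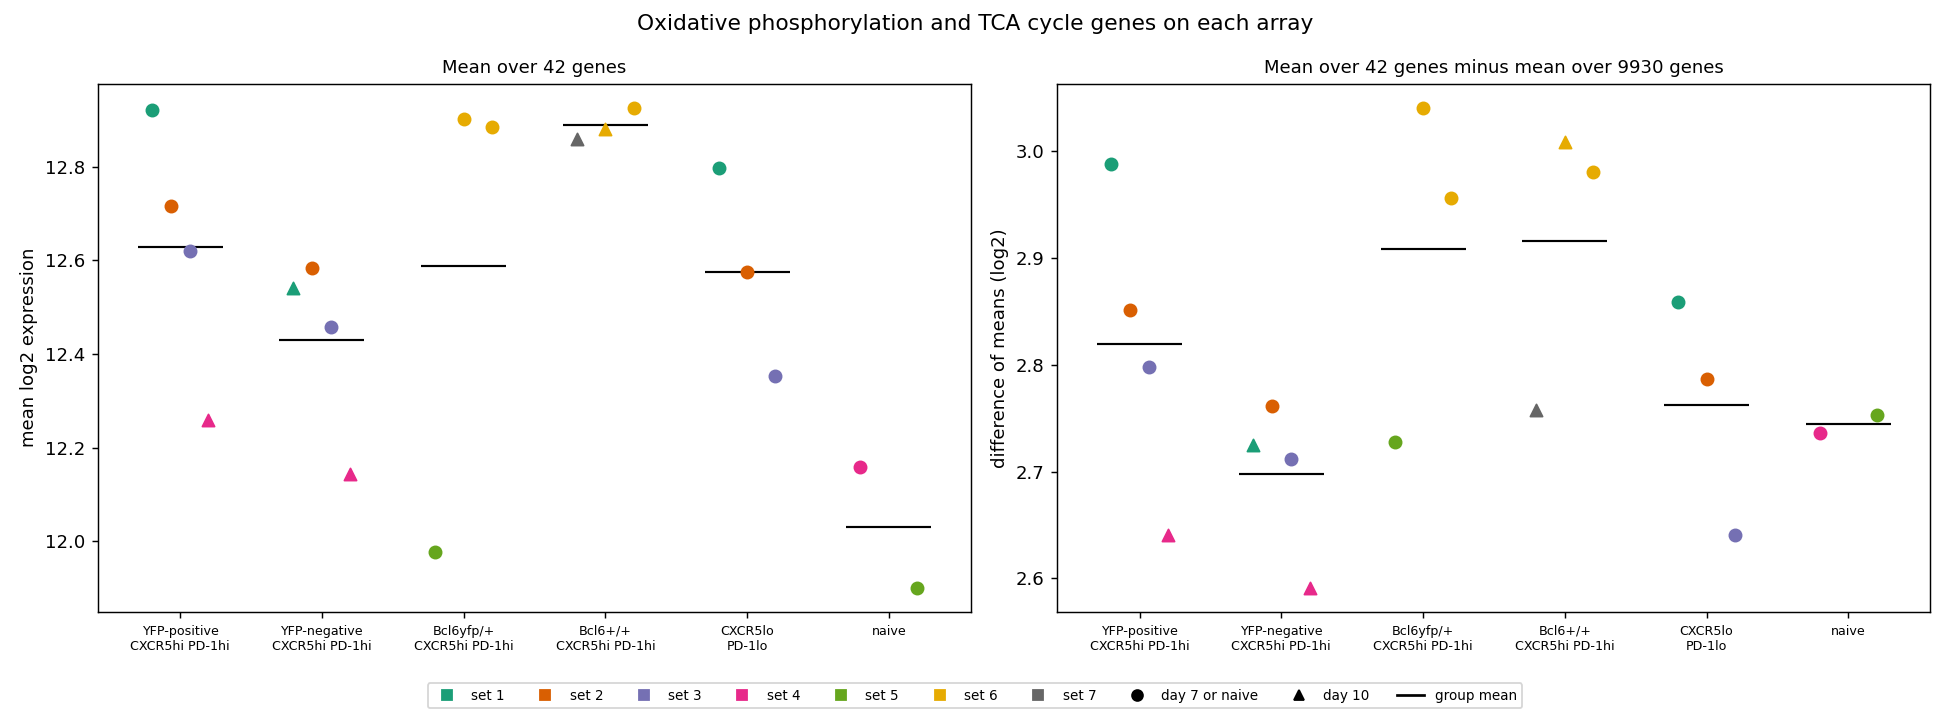
Mean log2 expression of the 42 genes on each of the 19 arrays (left) and the same minus the mean of all 9930 genes on that array (right), by group. Points are arrays coloured by normalization set, triangles are day 10 and lines are group means. In the left panel the reporter arrays of set 4 and the Bcl6yfp/+ array of set 5 are the lowest of their groups; in the right panel the naive arrays, at 2.74 and 2.75, lie inside the range of the CXCR5hi PD-1hi arrays.

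The mean over the 42 genes was 12.92, 12.72, 12.62 and 12.26 on the YFP-positive arrays and 12.54, 12.58, 12.46 and 12.14 on the YFP-negative arrays. It was 11.98, 12.90 and 12.88 on the Bcl6yfp/+ arrays and 12.86, 12.88 and 12.93 on the Bcl6+/+ arrays. It was 12.80, 12.58 and 12.35 on the CXCR5lo PD-1lo arrays and 12.16 and 11.90 on the naive arrays. Sets 4 and 5, which hold both naive arrays, also held the lowest array of 3 CXCR5hi PD-1hi groups, as the plot of array means shows. Bcl6+/+ cells had the highest group mean in 33 of 42 genes and naive cells the lowest in 35. The share of all genes in this order was not computed. The mean over all genes was also highest on Bcl6+/+ replicate 1 (10.10) and lowest on naive replicate 2 (9.15). With each array's mean over all genes subtracted, the naive arrays (2.74 and 2.75) lay within the CXCR5hi PD-1hi range of 2.59 to 3.04. The Bcl6+/+ arrays then stood at 2.76, 3.01 and 2.98 and the Bcl6yfp/+ arrays at 2.73, 3.04 and 2.96. In bulk samples fewer cells of a type and less RNA per cell cannot be told apart.

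The mean of the 4 CXCR5hi PD-1hi groups was compared with naive cells, since the study's title sets Tfh cells beside naive helper cells. In limma's fit of the deposited values over all arrays, 15 of 42 genes rose at an adjusted p under 0.05 and none fell. With the normalization set as a block or with quantile normalization, as given below, fewer rose and some fell. Among all genes 26.6% rose and 5.95% fell (32.6% in all). At an unadjusted p under 0.05 there were 21 of 42, beside 44% of all genes. Of the 42 differences 39 lay above 0, beside 75% of all genes. Their median was 0.60 log2, against 0.44 for all genes, and 29 of 42 lay above that common shift. By role, 5 of 14 complex I genes rose, 1 of 4 in complex II, 1 of 4 in complex III, 3 of 4 in complex IV, 1 of 3 in ATP synthase and 4 of 10 in the TCA cycle. Ndufa4, now placed in complex IV, is counted in complex I throughout. Cytochrome c and both regulators were not called. Differences ran from -0.02 to 1.43 in complex I, 0.04 to 0.79 in complex II, 0.38 to 0.98 in complex III, 0.60 to 0.87 in complex IV, 0.34 to 1.21 in ATP synthase and -0.53 to 1.05 in the TCA cycle. In 8 genes all CXCR5hi PD-1hi arrays lay above both naive arrays, beside 19.9% of all genes, and in 0 all lay below (4.6%).

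Ndufa1, an accessory membrane subunit of complex I encoded on the X chromosome, differed most. Its lowest, median and highest levels were 11.86, 12.79 and 13.48 over the 14 CXCR5hi PD-1hi arrays, against 11.57 and 11.39 on the naive arrays. The groups did not overlap, and Ndufa1 rose 2.69-fold (log2 1.43, SE 0.28, limma adjusted p = 0.000973). Ndufs8, an iron-sulfur core subunit of complex I, had a lowest, median and highest level of 12.46, 13.15 and 13.40 in CXCR5hi PD-1hi cells, against 12.00 and 11.86 in naive cells. It did not overlap either, and rose 2.25-fold (log2 1.17, SE 0.22, limma adjusted p = 0.000748). Of its 6 probe sets 5 were higher, by 1.17 to 1.61, and 1, with means of 3.16 in CXCR5hi PD-1hi and 4.41 in naive cells, was near the floor of the scale. Ndufa8, an accessory subunit facing the intermembrane space, had 11.31, 12.49 and 13.00 in CXCR5hi PD-1hi cells, against 11.49 and 11.00 in naive cells. Bcl6yfp/+ replicate 1 alone lay between the naive arrays, and Ndufa8 rose 2.32-fold (log2 1.22, SE 0.36, limma adjusted p = 0.016).

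Ndufb8 and Ndufv2 also rose in complex I. Ndufb8, an accessory subunit of the membrane arm, had a lowest, median and highest level of 12.11, 12.72 and 13.17 in CXCR5hi PD-1hi cells, against 11.54 and 11.91 in naive cells (log2 0.93, SE 0.23, limma adjusted p = 0.00603). Ndufv2, an iron-sulfur core subunit near the NADH site, had 12.45, 12.88 and 13.32, against 12.19 and 12.23 in naive cells (log2 0.65, SE 0.19, limma adjusted p = 0.0159). Neither gene's groups overlapped. Ndufa4, first described with complex I and now placed in complex IV, spread widely, with 10.68, 12.29 and 12.69 in CXCR5hi PD-1hi cells, against 11.01 and 10.43 in naive cells (log2 1.30, SE 0.54, limma adjusted p = 0.0745). Ndufa10, an accessory subunit of complex I, had 11.13, 11.63 and 12.25 in CXCR5hi PD-1hi cells, against 11.83 and 11.54 in naive cells (log2 -0.02, SE 0.22), a range that holds both naive arrays.

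In complex II the gene that rose was Sdhb, the iron-sulfur subunit of succinate dehydrogenase. It had a lowest, median and highest level of 11.48, 12.43 and 12.96 in CXCR5hi PD-1hi cells, against 11.68 and 11.33 in naive cells (log2 0.79, SE 0.28, limma adjusted p = 0.0422). In complex III it was Uqcrc1, a core subunit, with 10.95, 11.98 and 12.29, against 11.19 and 10.59 in naive cells (log2 0.98, SE 0.27, limma adjusted p = 0.0101). Both overlapped, through 2 arrays and 1 array. The 3 genes of complex IV that rose encode nuclear subunits around its catalytic core. Cox4i1 had 12.91, 13.71 and 14.06 in CXCR5hi PD-1hi cells, against 13.20 and 12.70 in naive cells (log2 0.72, SE 0.26, limma adjusted p = 0.0451). Cox5a had 12.91, 13.86 and 14.20, against 13.24 and 12.62 in naive cells (log2 0.85, SE 0.29, limma adjusted p = 0.0357). Cox5b had 13.94, 14.38 and 14.75, against 13.80 and 13.76 in naive cells (log2 0.60, SE 0.18, limma adjusted p = 0.0171). Of these 3, Cox5b alone did not overlap. Atp5g1, which encodes subunit c of the ATP synthase ring, had 11.86, 13.04 and 13.57 in CXCR5hi PD-1hi cells, against 12.12 and 11.46 in naive cells (log2 1.21, SE 0.38, limma adjusted p = 0.0212), and 13 of 14 arrays lay above both naive ones.

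Among TCA cycle enzymes, Suclg1, the alpha subunit of succinyl-CoA ligase, had a lowest, median and highest level of 11.63, 12.41 and 13.00 in CXCR5hi PD-1hi cells, against 11.39 and 11.36 in naive cells (log2 1.05, SE 0.32, limma adjusted p = 0.0201). Fh1, fumarase, had 11.83, 12.47 and 13.10, against 11.51 and 11.45 in naive cells (log2 0.97, SE 0.26, limma adjusted p = 0.00888). Ogdh, the first enzyme of the 2-oxoglutarate dehydrogenase complex, had 10.90, 11.32 and 11.61, against 10.83 and 10.74 in naive cells (log2 0.57, SE 0.17, limma adjusted p = 0.0156). None of these 3 overlapped, and all 3 rose. Dlst, the second enzyme of that complex, rose too, with 10.81, 12.00 and 12.30 in CXCR5hi PD-1hi cells, against 11.43 and 10.77 in naive cells (log2 0.79, SE 0.29, limma adjusted p = 0.0446), but the mean of its probe sets differed by -0.13. Idh2, the NADP-dependent isocitrate dehydrogenase of mitochondria, had the lowest difference of the 42 genes. It had 9.15, 9.70 and 10.62 in CXCR5hi PD-1hi cells, against 10.55 and 10.04 in naive cells (log2 -0.53, SE 0.28, limma adjusted p = 0.163), and 12 of 14 arrays lay below both naive ones. Its second probe set went the other way, with means of 9.57 in CXCR5hi PD-1hi and 8.78 in naive cells. Ppargc1b, the PGC-1beta co-activator of mitochondrial genes, had 6.93, 7.41 and 8.30 in CXCR5hi PD-1hi cells, against 8.04 and 7.76 in naive cells (log2 -0.49, SE 0.30, limma adjusted p = 0.212), and 10 of 14 arrays lay below both naive ones.

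**Figure D2:**
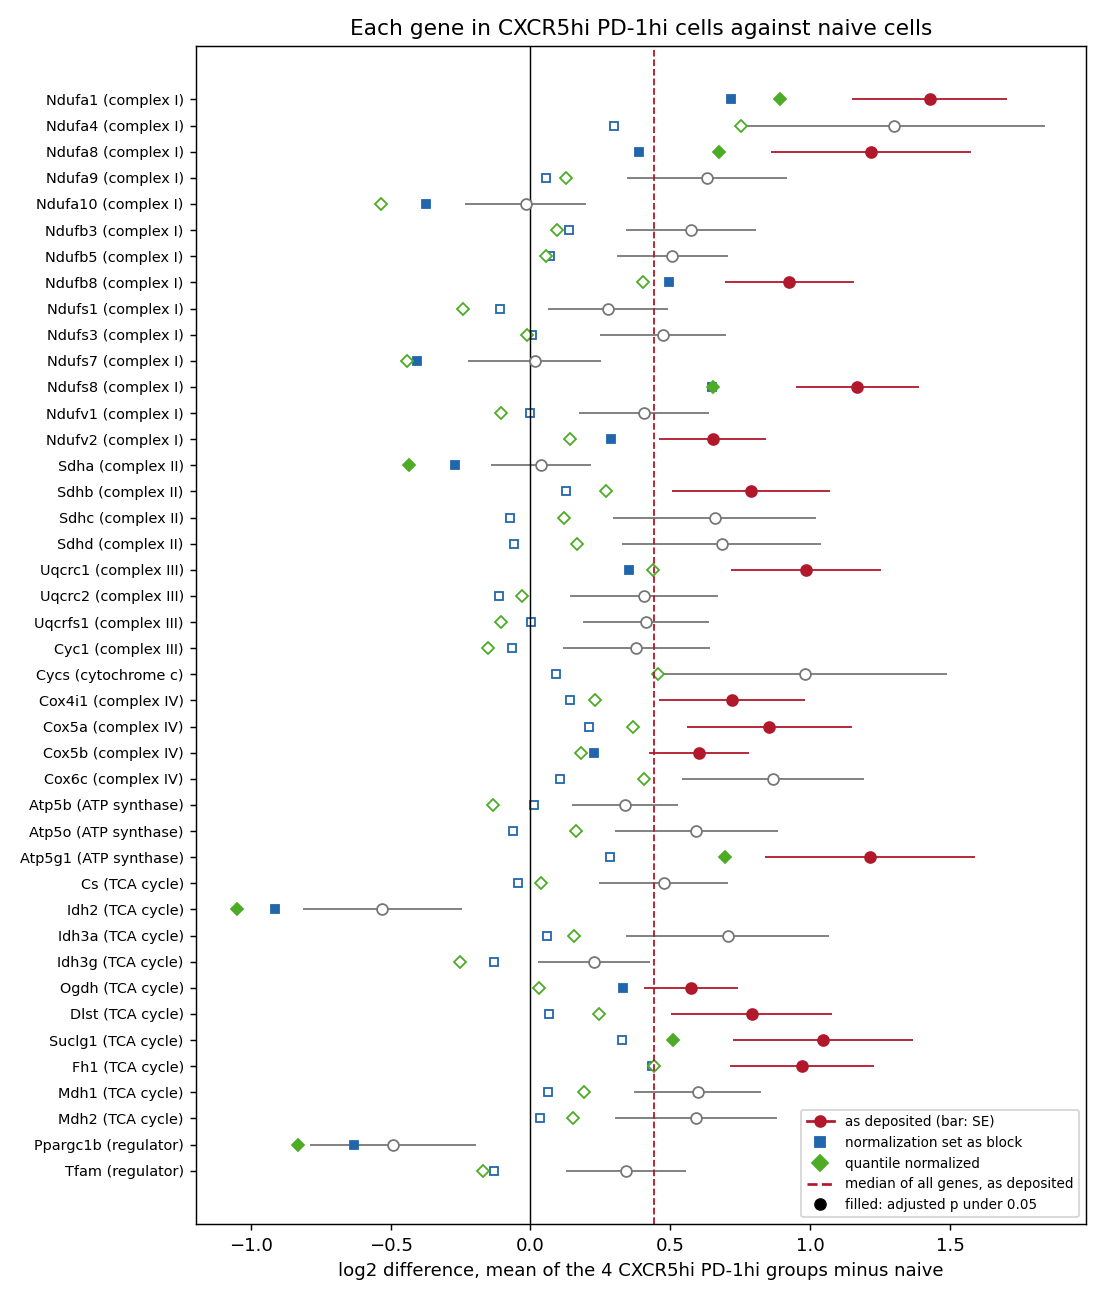
Log2 difference of each of 42 genes, mean of the 4 CXCR5hi PD-1hi groups minus naive, by role. Circles with SE bars are the values as deposited, squares the fit with normalization set as a block and diamonds the quantile-normalized values; filled symbols passed an adjusted p of 0.05, and the dashed line is the median of all genes, 0.44. In every gene the square and the diamond lie left of the circle. Among the squares 8 genes rose and 5 fell, beside 2425 and 2377 of all 9930 genes.

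The plot of all 42 differences shows how the normalization moved them. With the set as a block, the median of all genes was 0.00 and that of the 42 genes 0.06. Of the 42, 8 rose and 5 fell, beside 2425 and 2377 of all 9930 genes. With quantile normalization these medians were -0.01 and 0.15. Here 5 of the 42 rose and 3 fell, beside 1795 and 1672 of all 9930 genes. Ndufa1, Ndufs8 and Ndufa8 rose under all 5 alternatives computed, by log2 0.72 to 1.48, 0.65 to 1.25 and 0.39 to 1.34. Ndufa1 and Ndufs8 were also called with each of 16 arrays left out in turn, while Ndufa8 was lost without either naive array (adjusted p up to 0.218). Of the other 12 genes, Sdhb, Cox4i1 and Dlst were lost on leaving out 11, 12 and 13 of the 16 arrays in turn, Cox5a without Bcl6+/+ replicate 3 or either naive array, and the remaining 8 without 1 or both naive arrays only. Idh2, Ppargc1b and Sdha, the flavoprotein of complex II, fell both with the set as a block and with quantile normalization, and Sdha fell with the mean of its probe sets too (-0.79). The sizes were -0.92 and -1.05 for Idh2, -0.63 and -0.83 for Ppargc1b and -0.27 and -0.44 for Sdha. Within sets 4 and 5, which hold arrays of both kinds, Ndufs8 differed by 0.69 and 0.60, Ndufa1 by 0.95 and 0.47, and Idh2 by -1.15 and -0.62.

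Of 94 further genes of the pathway 85 were tested, and against naive cells 36 rose and 4 fell (median 0.58), beside the 26.6% and 5.95% of all genes. With the set as a block 24 rose and 14 fell (median 0.13), beside 2425 and 2377 of all 9930 genes. With quantile normalization 19 rose and 10 fell (0.11), beside 1795 and 1672. In the deposited values those that rose included 12 of 19 other complex I genes, 4 of 5 in complex III, 9 of 13 in ATP synthase and 8 of 18 assembly factors. Uqcrq, a small subunit of complex III, was at 10.71 to 12.47 in CXCR5hi PD-1hi cells, against 9.94 and 9.57 in naive cells (log2 1.93, limma adjusted p = 0.000837). Uqcr11, of the same complex, was at 10.10 to 11.99, against 9.64 and 9.32 in naive cells (log2 1.77). Among 9 genes of pyruvate entry, 1 rose and 3 fell. Pdk3, a kinase that switches off pyruvate dehydrogenase, was at 9.68 to 10.78 in CXCR5hi PD-1hi cells, against 7.75 and 8.40 in naive cells (log2 2.16, limma adjusted p = 6.16e-06). Pdk2, another such kinase, was at 2.18 to 5.74, against 7.06 and 6.28 in naive cells (log2 -3.80). Pdp1, a phosphatase that switches the enzyme back on, was at 2.37 to 6.02, against 7.09 and 6.93 in naive cells (log2 -3.06). In all 5 genes no CXCR5hi PD-1hi array overlapped the naive ones; values near 2 are the floor of the scale, which limits the last 2 differences. The mean of 19 cell cycle genes differed too, at 7.35 to 12.34 on CXCR5hi PD-1hi arrays and 5.85 to 6.06 on naive arrays, and its part in these results was not tested.

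CXCR5lo PD-1lo cells were next compared with naive cells. Of 42 genes 2 rose and none fell, beside 10.4% of all genes that rose and 1.58% that fell (11.9% in all); 14 had an unadjusted p under 0.05, beside 29.8%. The differences had a median of 0.53, against 0.46 for all genes, and 41 of 42 lay above 0, beside 80%. In 27 genes all CXCR5lo PD-1lo arrays were above both naive ones, beside 48%, and in none were all below (6.16%). Ndufs8 was at 12.95, 12.83 and 12.63 in CXCR5lo PD-1lo cells, against 12.00 and 11.86 in naive cells, and rose 1.83-fold (log2 0.87, SE 0.27, limma adjusted p = 0.043). Uqcrc1 was at 12.22, 11.72 and 12.02, against 11.19 and 10.59 in naive cells, and rose 2.14-fold (log2 1.10, SE 0.32, limma adjusted p = 0.0366). Neither overlapped. Both calls depended on single arrays: that of Ndufs8 was lost without CXCR5lo PD-1lo replicate 1 or 2 or either naive array, and that of Uqcrc1 without CXCR5lo PD-1lo replicate 1 or 3 or naive replicate 2, with adjusted p-values up to 0.25 and 0.34.

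Ndufa8 was at 12.60, 12.26 and 12.09 in CXCR5lo PD-1lo cells, against 11.49 and 11.00 in naive cells (log2 1.07, SE 0.43, limma adjusted p = 0.113), and Ndufa4 at 12.53, 11.78 and 10.97, against 11.01 and 10.43 in naive cells (log2 1.04, SE 0.65, limma adjusted p = 0.29). Ndufa8 did not overlap and Ndufa4 did. The lowest differences were in complex I and the TCA cycle. Ndufs7, an iron-sulfur core subunit, was at 13.65, 13.20 and 13.24 in CXCR5lo PD-1lo cells, against 13.33 and 13.43 in naive cells (log2 -0.02). Ndufb3, an accessory subunit, was at 12.93, 12.93 and 12.55, against 12.73 and 12.69 in naive cells (log2 0.10). Idh3g, a regulatory subunit of the NAD-dependent isocitrate dehydrogenase, was at 13.20, 13.15 and 12.90, against 12.89 and 13.01 in naive cells (log2 0.14). These 3 overlapped. No normalization set holds both groups, and a block for the set gave a median over the 42 genes of -0.05, with Ndufs8 higher (log2 0.42, limma adjusted p = 0.0316) and Ndufa10 lower (log2 -0.42, 0.0347). Of the 85 further genes Pdk3 (log2 1.50), Uqcrq (1.55), Uqcr11 (1.48) and the complex II assembly factor Sdhaf2 (0.83) rose and Pdk2 fell (-3.49); each of these calls was lost without at least 1 single array, that of Pdk3 only without naive replicate 1. Cell cycle means were 7.82 to 10.95 in CXCR5lo PD-1lo cells and 5.85 to 6.06 in naive cells, and their part was not tested.

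CXCR5hi PD-1hi cells were divided by the signal of the BCL6-YFP reporter. Bcl6 transcript averaged 13.908 in the YFP-negative fraction, 14.264 in the YFP-positive fraction and 12.685 in CXCR5lo PD-1lo cells. Of the 6 Tfh genes, Bcl6 among them, none was called between the fractions. The comparison therefore does not set presence of the transcript against its absence. No respiration gene was called between YFP-positive and YFP-negative cells in limma's fit (0 of 42, with 0 at an unadjusted p under 0.05), beside 0.121% of all genes called (0.0403% rose and 0.0806% fell) and 7.92% at the unadjusted p. The differences were small and ran one way: 41 of 42 were above 0, beside 50.3% of all genes, with a median of 0.20 against 0.00 for all genes. Medians by role were 0.21 in complex I, 0.16 in complex II, 0.28 in complex III, 0.16 in complex IV, 0.23 in ATP synthase and 0.17 in the TCA cycle. The groups overlapped in all 42 genes; 1.58% of all genes were higher and 2.31% lower with no overlap.

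Fh1, Ndufb8 and Idh2 had the highest differences. Fh1 was at 12.73, 12.80, 12.94 and 12.16 in YFP-positive cells, against 11.95, 12.54, 12.43 and 11.90 in YFP-negative cells (log2 0.45, SE 0.24, limma adjusted p = 0.769). Ndufb8 was at 13.02, 12.85, 12.68 and 12.29 in YFP-positive cells, against 12.22, 12.52, 12.33 and 12.11 in YFP-negative cells (log2 0.42, SE 0.22, limma adjusted p = 0.744). Idh2 was at 10.62, 9.71, 9.89 and 9.65 in YFP-positive cells, against 10.07, 9.47, 9.56 and 9.15 in YFP-negative cells (log2 0.41, SE 0.27, limma adjusted p = 0.954). In all 3 the YFP-positive array was the higher one under each replicate number. Dlst was at 12.20, 11.98, 12.06 and 11.56 in YFP-positive cells, against 12.30, 11.89, 11.98 and 11.54 in YFP-negative cells (log2 0.02), and Ndufs1, the large iron-sulfur subunit of complex I, at 11.88, 12.10, 11.62 and 11.48, against 11.92, 11.94, 11.70 and 11.38 in YFP-negative cells (log2 0.04). Ppargc1b alone had a negative difference, at 7.76, 7.07, 7.44 and 7.43 in YFP-positive cells, against 7.90, 7.38, 7.93 and 7.74 in YFP-negative cells (log2 -0.31, SE 0.28, limma adjusted p = 1), and was the lower one under each replicate number.

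**Figure D3:**
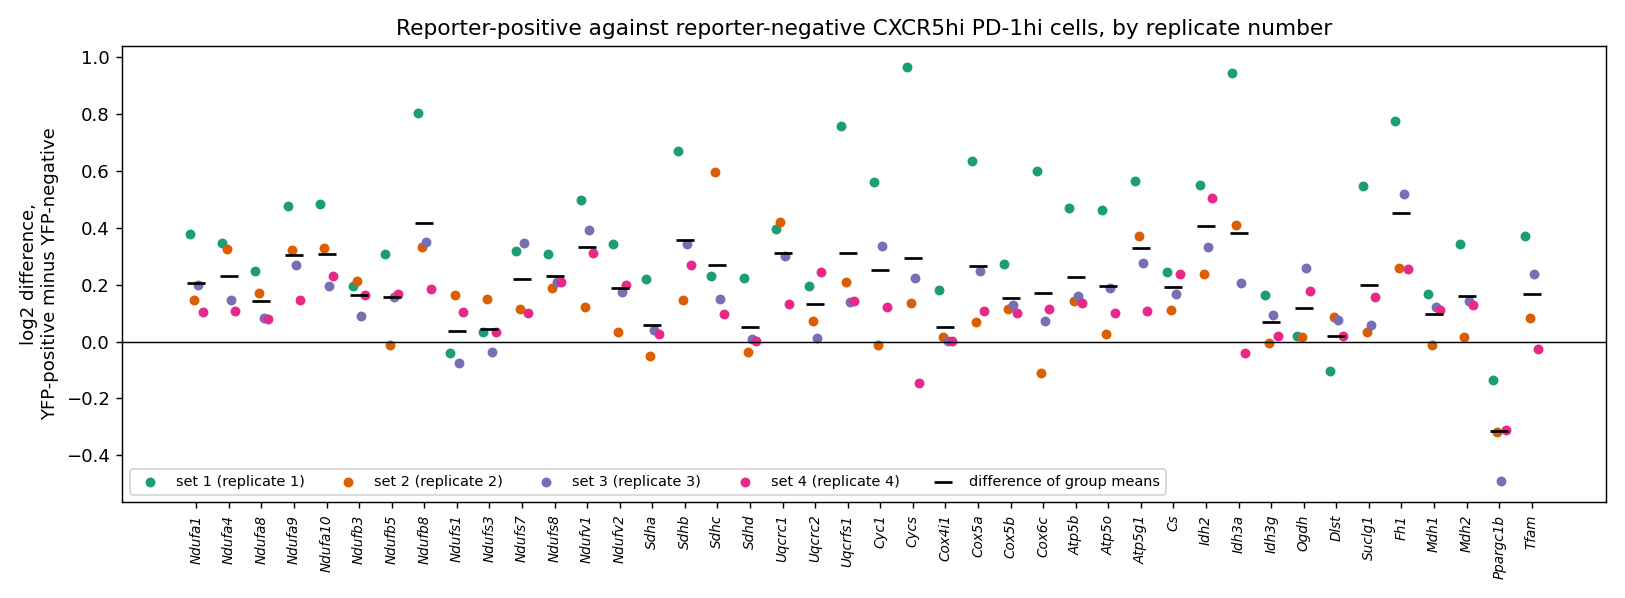
Log2 difference between the YFP-positive and the YFP-negative array of the same replicate number (points, coloured by normalization set) for each of 42 genes, with the difference of the group means as a dash. Replicate 1, whose 2 arrays differ in day, has the largest median over genes, 0.35; those of replicates 2 to 4 are 0.12, 0.16 and 0.11.

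The pairs of equal replicate number share a normalization set. As the plot of these pairs shows, the 42 genes had medians of 0.35, 0.12, 0.16 and 0.11 for replicates 1 to 4, with 39, 34, 39 and 38 of 42 above 0. Replicate 1 sets a day 7 YFP-positive array against a day 10 YFP-negative array, and of these the YFP-negative one alone carries Y-linked transcripts; the other pairs match in both. With day in the model the median was 0.13, with 37 of 42 above 0. The median was 0.11 without YFP-positive replicate 1, 0.32 without YFP-positive replicate 4 and 0.10 without YFP-negative replicate 4. In a fit blocked on replicate number, 0 of 42 and 64 of all genes were called. With the set as a block, which spans all arrays, 7 of 42 rose, beside 1541 of all genes called: Ndufa9, Ndufa10, Ndufs8 and Ndufv1 in complex I, Sdhb in complex II, Uqcrc1 in complex III and Idh2, by 0.23 to 0.41. The mean of 19 cell cycle genes was higher on the YFP-positive array of each pair, by 3.85, 1.48, 1.89 and 2.37 log2. Naive T cell genes (5 of 7 tested) averaged 6.24 to 8.23 on the YFP-positive and 8.97 to 10.29 on the YFP-negative arrays, and the part of both lists in these differences was not tested. Of the 85 further genes none was called by limma (4 at an unadjusted p under 0.05), while 11 rose and 1 fell with the set as a block, and under either fit 68 lay above 0, beside the 50.3% of all genes in the deposited values.

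Each reporter fraction was also compared with CXCR5lo PD-1lo cells, whose arrays serve in both comparisons. In YFP-positive cells no gene was called by limma (0 of 42, with 1 at an unadjusted p under 0.05), beside 10.6% of all genes called (5.18% rose and 5.39% fell) and 21.7% at the unadjusted p. Of 42 differences 26 lay above 0, beside 43.7%, with a median of 0.07 against -0.06 for all genes. In YFP-negative cells 1 of 42 fell and none rose, beside 3.39% of all genes that fell and 3.13% that rose (6.53% in all), and 1 had an unadjusted p under 0.05, beside 16.1%. Of these differences 6 lay above 0, beside 40.3%, and the medians of the 42 and of all genes were -0.09 and -0.08. Both balances moved with the setting. With numbered replicates blocked, the YFP-positive comparison had 35 of 42 above 0 (median 0.17) and the YFP-negative comparison 19 of 42 (median -0.01). In YFP-positive cells the median was -0.06 without CXCR5lo PD-1lo replicate 3, -0.03 without YFP-positive replicate 1, 0.16 without CXCR5lo PD-1lo replicate 1 and 0.17 without YFP-positive replicate 4. In YFP-negative cells 20 lay above 0 without YFP-negative replicate 4, 18 without CXCR5lo PD-1lo replicate 1, 10 without replicate 2 and 2 without replicate 3 of those cells, 20 with day as a covariate and 18 with quantile normalization.

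The gene that fell was Idh2. It was at 10.07, 9.47, 9.56 and 9.15 in YFP-negative cells, against 11.37, 10.59 and 10.61 in CXCR5lo PD-1lo cells. The groups did not overlap, and Idh2 fell 2.45-fold in YFP-negative cells (log2 -1.29, SE 0.29, limma adjusted p = 0.00985). In YFP-positive cells, at 10.62, 9.71, 9.89 and 9.65, it overlapped by 1 array (log2 -0.89, SE 0.29, limma adjusted p = 0.0614). With the replicate number as a block, Idh2 fell in both, by 0.76 on the log2 scale in YFP-positive cells (limma adjusted p = 0.00237) and by 1.17 in YFP-negative cells (0.000251). Within sets 1, 2 and 3 the differences were -0.75, -0.88 and -0.72 in YFP-positive cells and -1.30, -1.12 and -1.05 in YFP-negative cells. The call in YFP-negative cells was lost without CXCR5lo PD-1lo replicate 1 (log2 -1.04, limma adjusted p = 0.0652) and with the mean of its 2 probe sets (-0.94, 0.233); the second probe set alone differed by -0.58. Idh2 was at 9.42, 9.94 and 9.94 on the Bcl6yfp/+ arrays and 9.65, 9.69 and 9.94 on the Bcl6+/+ arrays, all below the CXCR5lo PD-1lo arrays.

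Complex I held the highest differences. Ndufa1 was at 12.96, 12.72, 12.86 and 12.57 in YFP-positive and 12.58, 12.58, 12.66 and 12.47 in YFP-negative cells, against 12.27, 12.22 and 12.14 in CXCR5lo PD-1lo cells. Neither fraction overlapped the CXCR5lo PD-1lo arrays (log2 0.57 and 0.36, limma adjusted p = 0.254 and 0.667). Ndufb3 was at 13.44, 13.46, 12.97 and 13.13 in YFP-positive and 13.24, 13.25, 12.88 and 12.97 in YFP-negative cells, against 12.93, 12.93 and 12.55 in CXCR5lo PD-1lo cells. Its YFP-positive arrays did not overlap them (log2 0.45, limma adjusted p = 0.294) and its YFP-negative arrays did (log2 0.28). Genes higher with no overlap were 2 of 42 in YFP-positive cells, beside 8.75% of all genes, and 1 of 42 in YFP-negative cells, beside 7.48%. Genes lower with no overlap were 0 of 42 in YFP-positive cells (14.1%) and 3 of 42 in YFP-negative cells (11.2%), Idh2 and, named after their values were seen, Ndufa10 and Atp5b. With the replicate number as a block, Ndufa4 (log2 0.62, limma adjusted p = 0.0321) and Ndufb3 (0.48, 0.0394) rose in YFP-positive cells beside the fall of Idh2, where 2301 of all genes were called. With the set as a block 15 of 42 rose in YFP-positive cells and Idh2 and Ppargc1b fell, beside 2256 of all 9930 genes that rose and 2183 that fell.

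**Figure D4:**
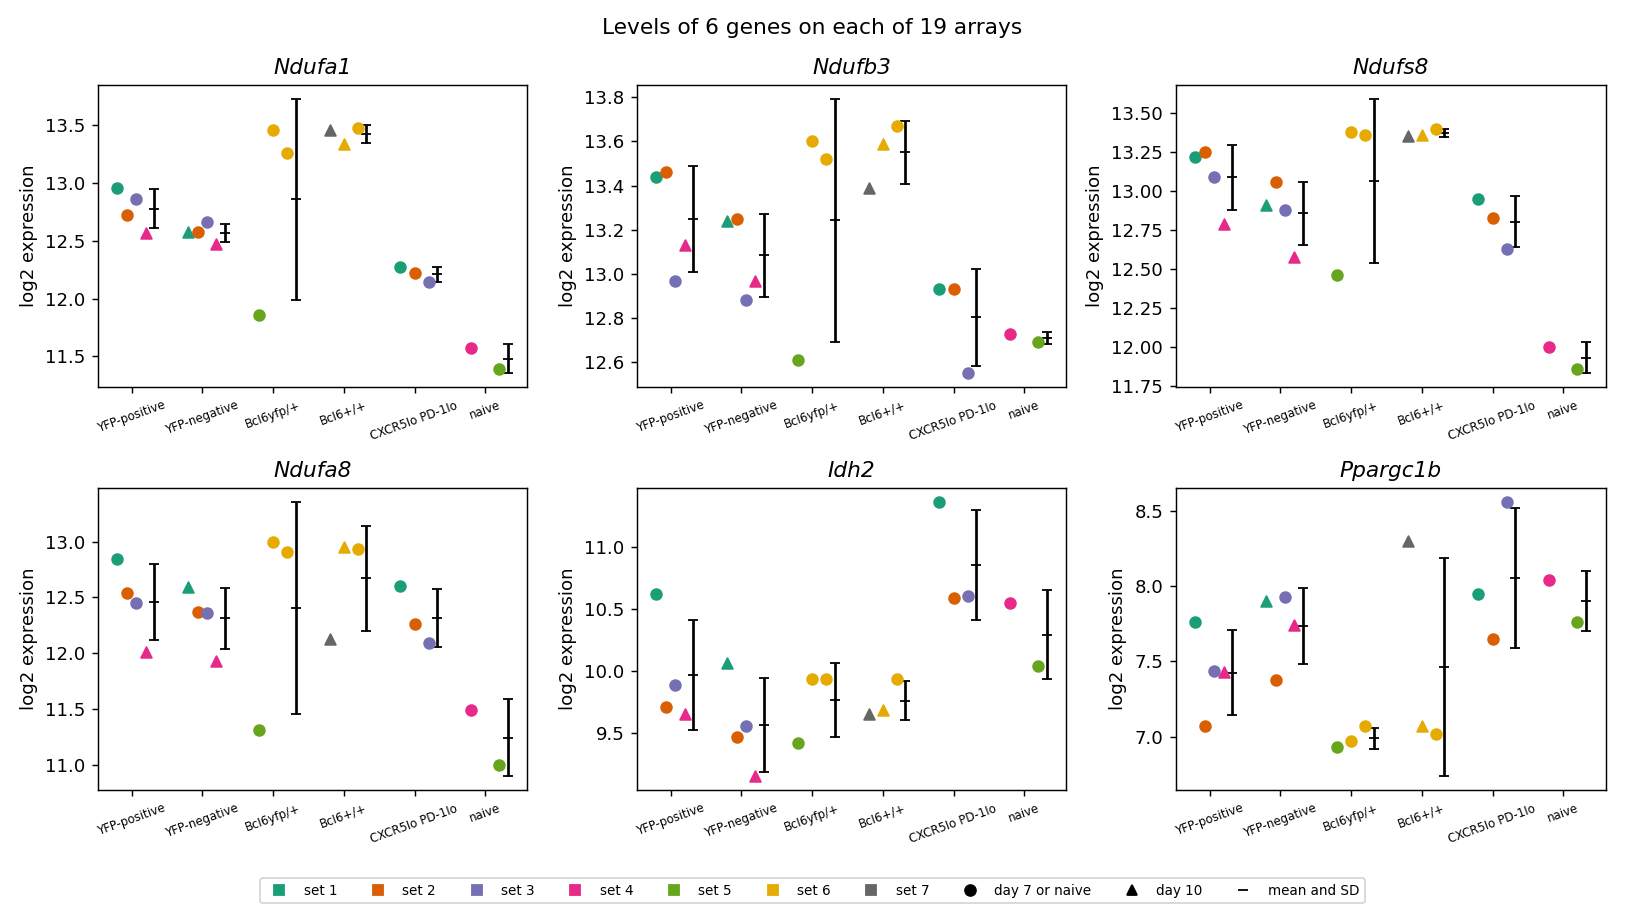
Log2 levels of 6 genes on each array by group, coloured by normalization set, with the mean and SD of each group beside the points and day 10 as triangles. Idh2 was at 9.15 to 10.07 on the YFP-negative arrays and 10.59 to 11.37 on the CXCR5lo PD-1lo arrays; Ndufa1 and Ndufs8 were lowest on the naive arrays.

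The plot of 6 genes shows Idh2 and the complex I genes across all groups. Cycs, cytochrome c, was at 13.02, 12.89, 12.37 and 11.65 in YFP-positive cells, against 12.46, 12.68 and 11.08 in CXCR5lo PD-1lo cells (log2 0.41, SE 0.51). Sdha was at 13.52, 13.41, 13.31 and 13.07, against 13.59, 13.55 and 13.44 in CXCR5lo PD-1lo cells (log2 -0.20, SE 0.18). Ppargc1b was at 7.76, 7.07, 7.44 and 7.43, against 7.95, 7.65 and 8.56 in CXCR5lo PD-1lo cells (log2 -0.63, SE 0.30, limma adjusted p = 0.237). All 3 overlapped. In YFP-negative cells Ndufa4 was at 12.34, 12.25, 11.79 and 11.30, against 12.53, 11.78 and 10.97 in CXCR5lo PD-1lo cells (log2 0.16, SE 0.54). Idh3a, the catalytic subunit of the NAD-dependent isocitrate dehydrogenase, was at 10.48, 11.13, 10.58 and 10.25, against 11.56, 11.33 and 10.47 in CXCR5lo PD-1lo cells (log2 -0.51, SE 0.37). Uqcrfs1, the Rieske iron-sulfur subunit of complex III, was at 11.67, 11.65, 11.98 and 11.55, against 12.41, 11.95 and 12.14 in CXCR5lo PD-1lo cells (log2 -0.46, SE 0.23, limma adjusted p = 0.346). These 3 overlapped as well.

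Of the 85 further pathway genes, Pdk3 rose in YFP-positive against CXCR5lo PD-1lo cells (log2 1.02, limma adjusted p = 0.0158). Pprc1, a PGC-1-related co-activator, was at 8.98 to 10.64 in YFP-positive and 9.15 to 10.24 in YFP-negative cells, against 10.81 to 11.77 in CXCR5lo PD-1lo cells, with no overlap. It fell in both fractions (log2 -1.34 and -1.37, limma adjusted p = 0.0381 and 0.0472). Polg2, the accessory subunit of the mitochondrial DNA polymerase, was at 9.59 to 10.17 in YFP-positive cells, against 10.66 to 10.94 in CXCR5lo PD-1lo cells, and fell (log2 -0.99). Of 7 arrays left out in turn, either call of Pprc1 was kept in 1 case, that of Polg2 in 3 and that of Pdk3 in 5. Within sets 1, 2 and 3 cell cycle means differed by 1.39, 2.89 and 4.49 in YFP-positive cells and -2.46, 1.40 and 2.60 in YFP-negative cells. The 42 genes had medians of 0.09, 0.10 and 0.32 in YFP-positive and -0.19, 0.03 and 0.13 in YFP-negative cells. In set 1 the YFP-negative array, from day 10 and with Y-linked transcripts, differs in both from the CXCR5lo PD-1lo array of day 7.

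Bcl6yfp/+ and Bcl6+/+ cells differ in whether 1 Bcl6 allele carries the reporter, and also in day, since Bcl6+/+ replicates 1 and 2 are from day 10 and the other arrays of both groups from day 7. No gene was called by limma (0 of 42, with 1 at an unadjusted p under 0.05), beside 0% of all genes called and 2.89% at the unadjusted p. Of 42 differences 1 lay above 0, beside 11.3% of all genes, with medians of -0.30 for the 42 and -0.26 for all genes. With day as a covariate the median of the 42 was -0.47, with 0 above 0, and without Bcl6yfp/+ replicate 1, 2 or 3 it was -0.02, -0.47 or -0.45. None was higher and 2 were lower with no overlap, beside 0.151% and 4.43% of all genes; these were Ndufs7 and, named after its values were seen, Ogdh. Ndufs7 was at 12.89, 13.53 and 13.57 in Bcl6yfp/+ cells, against 14.54, 13.62 and 13.78 in Bcl6+/+ cells, with no overlap (log2 -0.65, SE 0.26, limma adjusted p = 0.868). Ndufa1 was at 11.86, 13.46 and 13.26 in Bcl6yfp/+ cells, against 13.46, 13.34 and 13.48 in Bcl6+/+ cells (log2 -0.56, SE 0.30, limma adjusted p = 0.868). Cox6c, a small subunit of complex IV, was at 13.11, 14.53 and 14.40 in Bcl6yfp/+ cells, against 14.49, 14.51 and 14.58 in Bcl6+/+ cells (log2 -0.52, SE 0.35). In these 3 genes Bcl6yfp/+ replicate 1, of set 5, was the lowest array.

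At the other end Cycs was at 11.68, 13.56 and 13.17 in Bcl6yfp/+ cells, against 11.97, 13.56 and 13.17 in Bcl6+/+ cells (log2 -0.10), and Ndufa4 at 10.68, 12.66 and 12.58, against 10.86, 12.61 and 12.61 in Bcl6+/+ cells (log2 -0.05). Idh2, at the levels given above, differed by 0.01. All 3 genes overlapped widely. In set 6, with 2 arrays of each genotype, the 42 genes had a median of -0.01, with 17 above 0, against 0.00 for all genes. With the replicate number as a block 0 genes were called. Of the 85 further genes none was called by limma (4 at an unadjusted p under 0.05), and 3 lay above 0, beside the 11.3% of all genes; with the set as a block 40 did and with quantile normalization 20.

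Day 10 was compared with day 7 within the 3 groups that hold both. No gene of the 42 was called by limma (2 at an unadjusted p under 0.05, Idh3a and, named after its values were seen, Tfam), beside 0.232% of all genes called (0.181% rose and 0.0504% fell) and 10.2% at the unadjusted p. Of 42 differences 2 lay above 0, beside 29.6%, with medians of -0.22 for the 42 and -0.14 for all genes. Quantile normalization gave a median of -0.06, with 12 of 42 above 0, and leaving out YFP-positive replicate 4 gave -0.12. In both reporter fractions all day 10 arrays carried Y-linked transcripts and no day 7 array did, so day and sex cannot be told apart there; in Bcl6+/+ cells the arrays of both days carried them. None was higher or lower with no overlap, beside 0.121% and 0.312% of all genes. Cycs had the lowest difference (log2 -0.67, SE 0.41, limma adjusted p = 0.653). In YFP-positive cells it was at 11.65 at day 10, against 13.02, 12.89 and 12.37 at day 7. In YFP-negative cells it was at 12.06 and 11.80 at day 10, against 12.76 and 12.15 at day 7. In both fractions the day 10 arrays were the lower ones. In Bcl6+/+ cells it was at 11.97 and 13.56 at day 10, against 13.17 at day 7, with the day 7 array between them.

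Ndufa4 (log2 -0.63, SE 0.44) and Idh3a (-0.61, SE 0.28) followed, and Ndufb3 (-0.08), Ndufs7 (0.03) and Ppargc1b (0.25) stood at the other end, and none of these was called. Idh3a was at 10.22 at day 10, against 11.43, 11.54 and 10.79 at day 7 in YFP-positive cells, and 10.80 and 11.40 at day 10, against 11.43 at day 7 in Bcl6+/+ cells. The day effect was not called as different between groups for any of the 42 genes in 3 tests of the difference by limma, with 0 at an unadjusted p under 0.05. Replicate 4 of both reporter fractions, from day 10 and in set 4, had the lowest mean over the 42 genes in its group. In YFP-positive cells it is the only day 10 array, so day and normalization set cannot be told apart there. In YFP-negative cells replicate 1 is also from day 10, but in set 1. Its mean was 12.54, against 12.14 on replicate 4 and 12.58 and 12.46 on the day 7 arrays. The part of day and of set was not tested.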

How the data were processed

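RNA was amplified to cDNA and hybridised to 1 array per sorted sample, 19 in 6 groups. The deposited values are log2 intensities that the authors normalized with GCRMA, per the submitters' processing notes; its version is not given in the sources used here. The arrays were apparently normalized in 7 sets, which can shift a difference between groups in different sets. The median of an array lay between 2.40 and 2.99, with 40.9% to 46.6% of its probe sets at log2 4 or more. Of 45101 probe sets 34945 carry 1 symbol, 932 several and 9160 none, and 64 are controls, per the platform annotation; 34741 matched RefSeq by Entrez ID. A gene's value is its brightest single-symbol probe set, kept at log2 4 or more on 2 arrays or more.

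All 9930 genes were fitted with limma 3.58.1 (lmFit, contrasts and eBayes, R 4.3.3) over all 19 arrays, with Benjamini-Hochberg adjustment over all of them and calls at an adjusted p under 0.05; day was a term in its own fit. The code was also tested on simulated data. The number of arrays limits the precision. Samples of equal replicate number deviated together from their group means (correlations of 0.267 to 0.868 over the 13 pairs). In each pair the sample of the first-named group correlated best with its own number. Replicate number was therefore used as a block in an alternative fit of the first 4 comparisons. Reporter and CXCR5lo PD-1lo arrays of equal number also share a normalization set, so these correlations cannot tell paired samples from a shared set. Number 1 sets a day 10 YFP-negative array beside day 7 arrays. Numbers 1 and 2 set day 7 Bcl6yfp/+ arrays beside day 10 Bcl6+/+ arrays. Alternatives were the replicate number or the normalization set as a block, quantile normalization, no filter, the mean of a gene's probe sets, day as a covariate and each array left out. Levels were given for each gene called and, per comparison, the 3 highest and 3 lowest differences, and at most 5 further pathway genes called. The genes, lists and tests were chosen with earlier results of these data known. Promoters came from RefSeq. Figures used matplotlib 3.10.9 with pandas 2.3.3, NumPy 2.4.6 and Python 3.11.15.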

Additional observations from a re-analysis of the deposited data

Results flagged for a closer look

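In each reporter fraction, every gene was examined for 1 array whose gap to the nearest of the other 3, over the whole range, passed Dixon's critical value for 4 samples. Of 84 sets of 4 arrays 8 did. Chance gives about 1 in 20 for independent sets, but these sets share the same arrays, so that rate gives no expected count. The share of all genes so flagged was not computed. Replicate 4 of set 4, from day 10, was the low array in 6 of the 8. In YFP-negative cells it was at 12.45 for Ndufv2, against 12.76 to 12.82 on the others, 11.64 for Sdhb, against 12.23 to 12.33, 10.90 for Ogdh, against 11.27 to 11.31, and 13.93 for Mdh1, against 14.34 to 14.40. In YFP-positive cells it was at 11.36 for Ndufa10, against 11.92 to 11.97, and 11.66 for Tfam, which encodes the packaging factor of mitochondrial DNA, against 12.25 to 12.31. YFP-negative replicate 2 was high for Ndufa9, at 12.90 against 12.60 to 12.63, and for Ndufv1, at 12.42 against 11.84 to 11.94.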

How the results depend on the processing

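A block for the set also takes up replicate number and, in part, day. With it, 7 of 42 genes were called between YFP-positive and YFP-negative cells (0 as deposited), 17 between YFP-positive and CXCR5lo PD-1lo cells (0) and 6 between YFP-negative and CXCR5lo PD-1lo cells (1). Over all genes in these 3 comparisons, 1541, 4439 and 3026 were called (12, 1049 and 648 as deposited). Between Bcl6yfp/+ and Bcl6+/+ cells the median of the 42 genes was -0.012 (-0.299) and 4 genes were called (0). Against naive cells the median was -0.047 in CXCR5lo PD-1lo cells (0.526), with 2319 genes called (1185), and 0.062 in CXCR5hi PD-1hi cells (0.600); no gene was called by day (23). With quantile normalization the first 3 comparisons called 0, 4 and 2 of 42 and 66, 1953 and 1229 genes. Against naive cells it gave medians of 0.049 in CXCR5lo PD-1lo cells, with 1 gene of 42 called (Ndufb3, which fell), and 0.146 in CXCR5hi PD-1hi cells, with 8 called (15), and 46 genes were called by day.

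Of the genes called against naive cells, 81.7% rose in CXCR5hi PD-1hi cells as deposited, against 50.5% with the set block and 51.8% with quantile normalization; in CXCR5lo PD-1lo cells these were 86.8%, 59.1% and 46.3%. Of those called between YFP-positive and YFP-negative cells 33.3% rose, against 53.7% with the set block, 47.1% with day as a covariate, 14.3% with no filter and 22.2% with the mean of probe sets. With no filter 7 genes were called between YFP-positive and YFP-negative cells and 1 by day. With the mean of probe sets 0 of 42 were called between YFP-negative and CXCR5lo PD-1lo cells and 1 between CXCR5lo PD-1lo and naive cells, and Dlst had -0.13 against naive cells. The cause was not tested.

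With the replicate block, 64 genes were called between YFP-positive and YFP-negative cells, 2301 between YFP-positive and CXCR5lo PD-1lo cells, with 3 of the 42, and 1303 between YFP-negative and CXCR5lo PD-1lo cells. It changed no other call of the 42 genes, and could not be fitted against naive cells or for day.

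Leaving out each array in turn called 4 to 307 genes between YFP-positive and YFP-negative cells, the last without YFP-positive replicate 4. It called 0 to 1 of 42 and 654 to 1051 genes between YFP-positive and CXCR5lo PD-1lo cells, and 0 to 1 of 42 and 414 to 605 genes between YFP-negative and CXCR5lo PD-1lo cells. It called 0 to 1 of 42 and 574 to 1151 genes between CXCR5lo PD-1lo and naive cells. It called 3 to 27 of 42 and 1579 to 4685 genes between CXCR5hi PD-1hi and naive cells, with 3 without naive replicate 2, 4 without naive replicate 1 and 27 without Bcl6yfp/+ replicate 1. It called 0 to 395 genes by day. With 2 naive arrays in different sets, small differences from naive cells are beyond what these arrays can show.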
